A study of Mus musculus with 38 samples.

Results

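The transporters described here were the ATP-binding cassette (ABC) genes of subfamilies A, B, C, D and G and the solute carriers of the bile acid, organic anion and organic cation families. They were chosen by symbol alone, as every gene whose name begins with Abca, Abcb, Abcc, Abcd or Abcg and a number, with Slco and a number, or with Slc10a, Slc22a, Slc47a, Slc51a or the matching b names. The rule found 53 of the 10547 measured genes: 10 Abca, 7 Abcb, 8 Abcc, 4 Abcd, 5 Abcg, 4 Slc10, 7 Slc22, 1 Slc47, 1 Slc51 and 6 Slco genes. The question asked of them was how uptake and export transporters stood against each other in cholestatic liver. All 53 were tested, since no filter on low counts was used.

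Hepatocytes take bile salts and organic anions from sinusoidal blood through carriers of the Slc10 and Slco families, and pump them into the bile canaliculus with ABC transporters such as the bile salt export pump Abcb11. Other ABC transporters of the C subfamily and the Slc51 carrier move bile salts and conjugates back to the blood across the basolateral membrane. In cholestasis, bile flow is impaired, and bile acid sensing nuclear receptors are known to alter the genes of uptake and export.

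Liver sections of WT mice and of TrailΔmye mice, in which floxed Tnfsf10 (Trail) is deleted by Cre driven from the Lyz2 locus of myeloid cells, were profiled with the mouse Whole Transcriptome Atlas probes on the GeoMx Digital Spatial Profiler. Mice of both genotypes were fed a control diet (CON) or a diet with diethoxycarbonyl-1,4-dihydrocollidine (DDC), a porphyrinogenic agent that causes cholestatic injury, in rounds of 5 days separated by 3 days of chow over 21 days. The controls were on the same schedule, and the study was ended on day 22 in all groups. Segments were taken as PanCK+ (cholangiocyte) and IBA1+ (macrophage) areas of periportal regions of interest (ROIs) and as IBA1+ areas of the parenchyma. The PanCK+ segments numbered 3 WT CON, 4 WT DDC, 4 TrailΔmye CON and 5 TrailΔmye DDC, the periportal IBA1+ segments 2, 4, 4 and 5, and the parenchymal IBA1+ segments 1, 2, 2 and 2, for a total of 38 segments from 23 ROIs. No label ties a segment to a mouse, so segments of 1 group can share an animal. The p-values below treat each segment as a replicate, measure only the spread between segments, and are too small as a measure over animals.

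Total counts ran from 20319 to 836971 per segment, and levels are given below as Q3-normalized counts, in which the 75th percentile of every segment is 10.5. No value in the table is below 1 count. A single count was worth between 0.131 and 5.25 Q3-normalized counts, and 28.2% of the values of the transporters stood at 1 count, against 27.2% over all genes. The transporters differed little from other genes in level, with a median over genes of 6.89 against 6.82. The segment labels were checked against 10 markers of each cell type: all 10 cholangiocyte markers were higher and all 10 macrophage markers lower in PanCK+ than in periportal IBA1+ segments. Hepatocyte markers such as Alb and Apoa1 were high in every class, with sums over 10 genes from 1094 to 15029 Q3-normalized counts, so hepatocyte RNA was present in every segment. In such mixed segments, fewer cells of a type and less RNA per cell cannot be told apart.

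The promoters of the transporters that carried the diet result are shown first. They are RefSeq windows on build GRCm38.p6, from 250 bases before to 50 after the start, written 5′ to 3′ along the gene, of Slc10a1 (2 starts), the bile salt carrier of the sinusoidal membrane; Slco1b2 and Slco1a1, its organic anion carriers; and Abcb11, the canalicular bile salt pump. Slc10a1 lies on the minus strand of chromosome 12 (chr12:80968656-80968955 and chr12:80968030-80968329), Slco1b2 on the plus strand (chr6:141629268-141629567) and Slco1a1 on the minus strand (chr6:141946913-141947212) of chromosome 6, and Abcb11 on the minus strand of chromosome 2 (chr2:69342567-69342866). Capitals mark matches on either strand to AGGTCA, a half-site read by many nuclear receptors (TGACCT on the other strand), to GTTAAT, a hepatocyte nuclear factor 1 half-site, and to TGACNNNGC, the core of an antioxidant response element.
Slc10a1 upstream start: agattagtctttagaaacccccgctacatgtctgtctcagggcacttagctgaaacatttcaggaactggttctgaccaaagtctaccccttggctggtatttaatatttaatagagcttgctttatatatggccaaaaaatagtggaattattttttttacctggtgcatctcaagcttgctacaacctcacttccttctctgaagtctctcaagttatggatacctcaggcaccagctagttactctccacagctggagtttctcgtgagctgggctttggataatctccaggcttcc
Slc10a1 downstream start: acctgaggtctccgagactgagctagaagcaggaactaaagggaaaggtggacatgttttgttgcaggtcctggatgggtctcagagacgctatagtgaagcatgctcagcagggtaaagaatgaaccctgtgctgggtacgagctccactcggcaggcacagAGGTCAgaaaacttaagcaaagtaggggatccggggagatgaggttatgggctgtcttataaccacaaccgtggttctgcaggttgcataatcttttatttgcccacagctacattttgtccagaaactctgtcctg
Slco1b2: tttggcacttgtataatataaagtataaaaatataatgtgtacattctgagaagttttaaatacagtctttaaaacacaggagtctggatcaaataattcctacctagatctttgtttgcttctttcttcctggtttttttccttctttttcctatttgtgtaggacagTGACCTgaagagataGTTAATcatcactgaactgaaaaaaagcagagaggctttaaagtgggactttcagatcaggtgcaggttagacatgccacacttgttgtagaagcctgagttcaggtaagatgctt
Slco1a1: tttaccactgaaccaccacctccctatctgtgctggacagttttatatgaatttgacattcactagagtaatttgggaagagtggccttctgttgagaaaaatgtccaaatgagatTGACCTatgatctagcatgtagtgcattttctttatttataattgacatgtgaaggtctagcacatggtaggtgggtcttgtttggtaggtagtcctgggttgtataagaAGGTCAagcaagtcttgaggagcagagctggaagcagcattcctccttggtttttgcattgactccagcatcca
Abcb11: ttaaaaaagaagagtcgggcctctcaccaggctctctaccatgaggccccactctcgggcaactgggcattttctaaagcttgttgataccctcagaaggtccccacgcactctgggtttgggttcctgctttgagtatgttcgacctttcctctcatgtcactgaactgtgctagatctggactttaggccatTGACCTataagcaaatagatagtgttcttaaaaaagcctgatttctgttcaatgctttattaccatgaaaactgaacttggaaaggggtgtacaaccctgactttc
AGGTCA was present in 16.3% of all 32851 promoter windows and in 25.5% of the 47 windows of the 38 transporters that had one, among them Slco1b2, Slco1a1, Abcb11 and the downstream start of Slc10a1. GTTAAT was found in 7.1% of all windows and in 4.26% of the transporters' windows, those of Slco1b2 and Slc10a2. TGACNNNGC was found in 12.4% and 17%, and in none of the 5 windows shown. A match describes these letters only.

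Slc10a1, the sodium-dependent bile salt carrier of the sinusoidal membrane of hepatocytes, fell with DDC diet in all 3 segment classes and in both genotypes, by 1.85 to 2.64 on the log2 scale. It was the one transporter called in all 5 diet comparisons. In periportal IBA1+ segments of TrailΔmye mice, Slc10a1 stood at 73.5, 74.8, 72.9 and 77.5 Q3-normalized counts on the control diet and at 13.0, 12.1, 10.5, 10.9 and 13.5 on DDC diet. Every DDC segment was below every control segment, by a log2 fold change of -2.64 (SE 0.26, edgeR adjusted p = 4.72e-11). In WT periportal IBA1+ segments, Slc10a1 was 36.8 and 78.8 on control and 10.5, 10.5, 5.25 and 17.5 on DDC diet. The WT groups did not overlap either, and the log2 fold change was -2.31 (SE 0.55, adjusted p = 0.0144). Without the WT CON segment of ROI 005 this call was lost (-1.66, adjusted p = 0.938), as it was without the WT DDC segment of ROI 011 (-2.10, adjusted p = 0.0715) and with TMM factors (-2.16, adjusted p = 0.11).

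The same carrier fell away from the portal tract. In parenchymal IBA1+ segments, Slc10a1 was 78.8 in the single WT control segment and 92.2 and 92.3 in the TrailΔmye controls, against 31.5 and 21.0 in WT DDC and 14.0 and 13.1 in TrailΔmye DDC segments. The 4 DDC segments lay below the 3 controls, and the log2 fold change with genotype as a term was -2.26 (SE 0.39, adjusted p = 0.0018). Leaving out the TrailΔmye DDC segment of ROI 038 gave -2.07 with an adjusted p of 0.0562.

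In PanCK+ segments the values of Slc10a1 overlapped between diets. In TrailΔmye mice, the controls held 52.5, 7.88, 28.9 and 31.5 and the DDC segments 6.46, 7.00, 8.68, 8.40 and 8.82 Q3-normalized counts. A single control lay within the range of the DDC segments, and the log2 fold change was -1.85 (SE 0.32, adjusted p = 2.55e-05). WT controls held 24.5, 57.8 and 5.25, and WT DDC segments 9.89, 2.10, 2.63 and 12.6. The lowest WT control was within the DDC range, and the fall of 2.06 on the log2 scale (SE 0.56, adjusted p = 0.0403) was not called without any 1 of 4 segments: the WT CON segments of ROI 001 (-2.20, adjusted p = 0.0964) and ROI 003 (-1.28, 0.944) and the WT DDC segments of ROI 009 (-1.74, 0.179) and ROI 011 (-1.83, 0.139). With TMM factors it was -1.87 (adjusted p = 0.0782).

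**Figure D1:**
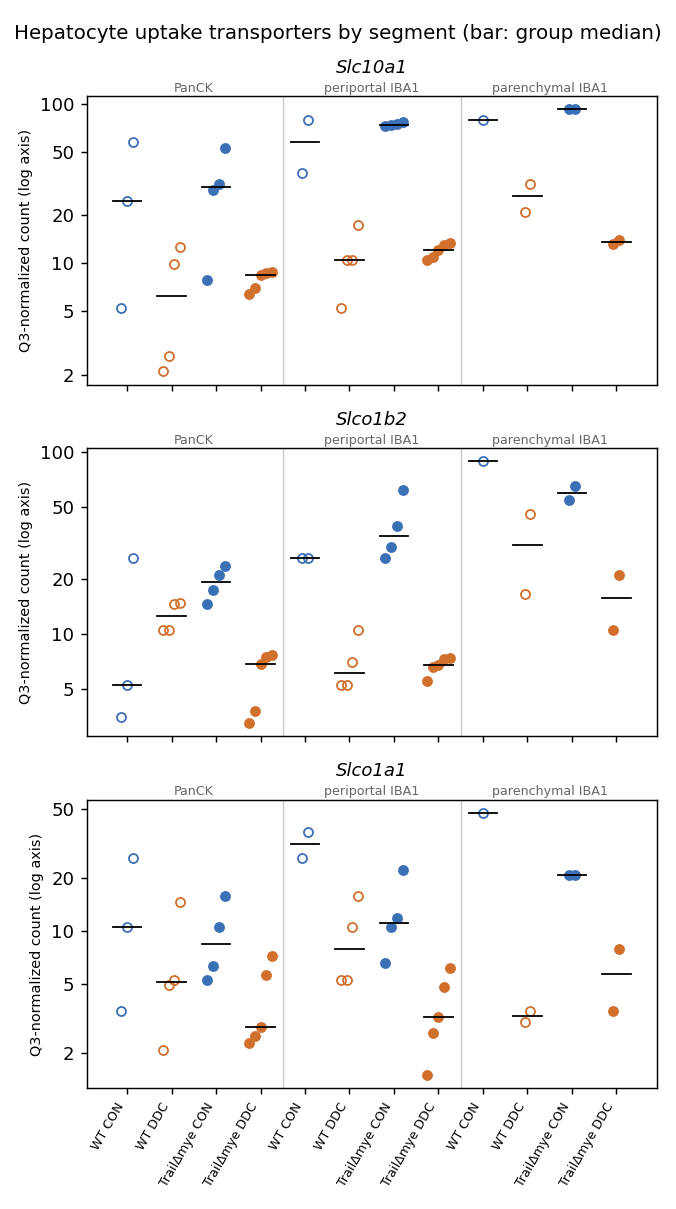
Q3-normalized counts (log axis) of 3 sinusoidal uptake carriers in each of the 38 segments, grouped by segment class, genotype and diet; open points are WT, filled points TrailΔmye, blue control and orange DDC diet, and bars are group medians. Slc10a1 of the TrailΔmye periportal IBA1+ segments lies between 72.9 and 77.5 on control and between 10.5 and 13.5 on DDC diet.

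Slco1b2, an organic anion carrier of the hepatocyte sinusoidal membrane, fell with DDC diet in parenchymal IBA1+ segments and, in TrailΔmye mice, in periportal IBA1+ and PanCK+ segments. In TrailΔmye periportal IBA1+ segments it was 26.3, 30.2, 39.4 and 61.7 Q3-normalized counts on control and 7.41, 7.27, 6.57, 5.55 and 6.75 on DDC diet. These groups did not overlap, and the log2 fold change was -2.60 (SE 0.25, adjusted p = 3.2e-11). TrailΔmye PanCK+ segments held 17.5, 23.6, 21.0 and 14.7 on control and 3.23, 7.70, 6.85, 7.48 and 3.78 on DDC diet, again without overlap (log2 fold change -1.64, SE 0.33, adjusted p = 0.000511). In WT PanCK+ segments the values were 3.50, 26.3 and 5.25 on control and 14.8, 14.7, 10.5 and 10.5 on DDC diet, and no difference was called (log2 fold change 0.24, adjusted p = 0.973). The interaction of genotype and diet in PanCK+ segments was not called for Slco1b2 (adjusted p = 0.894). In WT periportal IBA1+ segments, 26.3 and 26.3 on control stood against 5.25, 10.5, 5.25 and 7.00 on DDC diet, which did not pass the test (log2 fold change -1.89, SE 0.70, adjusted p = 0.342). Parenchymal IBA1+ segments held 89.3 (WT), 54.9 and 65.2 (TrailΔmye) on control and 45.5, 16.5, 10.5 and 21.0 on DDC diet. Here every DDC segment was lower (log2 fold change -1.80, SE 0.40, adjusted p = 0.0233), and the call was lost without the segment of ROI 012 (-1.53, 0.0943), 031 (-1.72, 0.09), 037 (-1.63, 0.138) or 038 (-1.97, 0.116) and with TMM factors (-1.57, 0.0953).

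Slco1a1, a second organic anion carrier, fell in TrailΔmye periportal IBA1+ segments and in parenchymal IBA1+ segments. Slco1a1 was 10.5, 6.57, 11.8 and 22.3 on control and 6.18, 3.23, 2.63, 4.76 and 1.50 on DDC diet in TrailΔmye periportal IBA1+ segments (log2 fold change -1.64, SE 0.31, adjusted p = 9.21e-05). Each of these DDC segments lay below all of these controls, and the groups did not overlap. In the parenchyma, Slco1a1 was 47.3, 21.0 and 21.0 on control and 3.50, 3.00, 3.50 and 7.88 on DDC diet (log2 fold change -2.75, SE 0.54, adjusted p = 0.00719), and the call was lost without ROI 004 (-1.79, 0.224) or 012 (-2.33, 0.0652). In PanCK+ segments it was not called, with log2 fold changes of -0.83 (WT) and -1.03 (TrailΔmye).

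Slco1a4 and Slco2b1, also of the uptake list, did not pass the test. Slco1a4, a close relative of Slco1a1 whose probes may share targets with it, had log2 fold changes between -0.65 and 0.85 over the 5 diet comparisons. Slco2b1, a widely expressed organic anion carrier, had values between -0.82 and 0.24. Of the 6 uptake genes, 1 fell in WT and 2 in TrailΔmye PanCK+ segments, 1 in WT and 4 in TrailΔmye periportal IBA1+ segments, and 4 in parenchymal IBA1+ segments. Over all 53 transporters, 1, 3, 2, 9 and 4 were called lower in these 5 comparisons in turn, that is 1.89%, 5.66%, 3.77%, 17% and 7.55% of them, against 0.417%, 0.664%, 1.04%, 5.18% and 0.465% of all genes. Called higher was a single transporter, in TrailΔmye periportal IBA1+ segments (1.89%, against 4.2% of all genes), and 0 elsewhere, where 0.493%, 1.43%, 0.142% and 0.294% of all genes were called higher. At an unadjusted p under 0.05, 6, 7, 8, 17 and 8 of 53 transporters differed in either direction, against 675, 1188, 537, 2225 and 680 of all 10547 genes. DESeq2 called 2, 3, 2, 7 and 4 transporters. Of all genes it called 91, 44, 36, 209 and 58 higher and 41, 128, 146, 449 and 36 lower. Limma called 3, 5, 7, 6 and 3 transporters, and its counts over all genes are not given here. The median log2 fold change of the 6 uptake genes was -0.74, -0.93, -1.34, -1.52 and -2.03, against all-gene medians of -0.17, 0.18, -0.16, 0.07 and -0.15.

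Hepatocyte markers moved with these falls. In periportal IBA1+ segments, 7 of 10 hepatocyte markers were called lower with DDC diet in WT (list median -1.86) and 8 of 10 in TrailΔmye mice (-1.65). Their summed level ran from 8519 to 12668 in WT controls and 1597 to 5383 in WT DDC segments, and from 10029 to 14046 and 1257 to 3941 in TrailΔmye mice. In PanCK+ segments 1 of 10 was called lower in either genotype, with sums of 3162 to 5016 against 1761 to 3183 in WT and 2975 to 8102 against 1094 to 3849 in TrailΔmye mice. In the parenchyma 1 of 10 was called lower (list median -0.52), with 12190 (WT) and 11661 to 12327 (TrailΔmye) on control and 11327 to 15029 (WT) and 4244 to 6261 (TrailΔmye) on DDC diet. The WT parenchymal DDC segments thus lay on both sides of the single WT control in hepatocyte marker RNA, while their Slc10a1, Slco1b2 and Slco1a1 levels were all lower than in that control.

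Per 1000 counts of the hepatocyte markers, Slc10a1 was 1.40 to 3.30 in the 4 parenchymal DDC segments and 6.46 to 7.92 in the 3 controls. Slco1b2, Slco1a1 and Abcb11 likewise lay below the lowest control in 4 of 4 parenchymal DDC segments. In periportal IBA1+ segments Slc10a1 per 1000 hepatocyte marker counts was 1.95 to 8.67 on DDC and 4.32 to 7.53 on control diet, with 6 of 9 DDC segments below the lowest control. In PanCK+ segments it was 0.999 to 7.68 against 1.66 to 11.5, with 2 of 9 below. Slco1b2, Slco1a1 and Abcb11 had at most 3 of 9 DDC segments below the lowest control in either periportal class. With each segment scaled to its hepatocyte marker sum, the median of the uptake list remained below 0 in the parenchyma (-1.46) and in WT PanCK+ segments (-0.10), and was 0.27, 0.34 and 0.67 in TrailΔmye PanCK+, WT periportal IBA1+ and TrailΔmye periportal IBA1+ segments. The scaling moved the median of all genes up by 0.838, 0.658, 1.11, 1.64 and 2.18 in these comparisons in turn. A list median above 0 on this scale therefore does not show a rise against other genes. On that scale parenchymal Slc10a1 (-1.69, adjusted p = 0.0184) and Slco1a1 (-2.43, 0.0366) were still called lower. The basolateral exporters Abcc3 (1.56, edgeR adjusted p = 0.0472) and Abcc5 (2.26, 0.0478) were called higher in the parenchyma. Of all genes, 315 were called higher and 22 lower in that comparison. Slc10a1 was no longer called in WT or TrailΔmye PanCK+ segments (-1.36, edgeR adjusted p = 0.401, and -0.67, 0.171). Nor was it called in WT or TrailΔmye periportal IBA1+ segments (-0.65, 0.407, and -0.46, 0.186). Slco1b2 lost its calls in TrailΔmye PanCK+ (-0.60, 0.259), TrailΔmye periportal IBA1+ (-0.43, 0.304) and parenchymal IBA1+ segments (-1.24, 0.112). The part of hepatocyte RNA in the periportal falls was not tested beyond these values.

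Of the canalicular exporters, Abcb11 and Abcc2 were called with DDC diet. Abcb11 fell in periportal IBA1+ segments of both genotypes. It was 42.0 and 52.5 Q3-normalized counts on control and 5.25, 10.5, 5.25 and 14.0 on DDC diet in WT mice (log2 fold change -2.33, SE 0.54, adjusted p = 0.0103). In TrailΔmye mice it was 22.8, 21.0, 15.8 and 27.6 on control and 8.65, 10.5, 7.88, 9.91 and 5.25 on DDC diet (-1.25, SE 0.25, adjusted p = 0.000195). Neither pair of groups overlapped. The WT call was lost without the control segment of ROI 005 (-2.16, adjusted p = 0.496) and with TMM factors (-2.19, adjusted p = 0.0573). Parenchymal Abcb11 was 47.3, 26.3 and 38.7 on control and 21.0, 24.0, 7.00 and 5.25 on DDC diet, and its log2 fold change of -1.66 (SE 0.43) did not pass the test (adjusted p = 0.0769). In PanCK+ segments Abcb11 was at or below 13.1 throughout, and its log2 fold changes were -1.06 in WT and -0.22 in TrailΔmye mice.

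Abcc2, which exports bilirubin conjugates and other organic anions into bile, fell in TrailΔmye periportal IBA1+ segments. There it was 26.3, 17.1, 18.4 and 27.6 on control and 9.27, 17.0, 13.8, 10.3 and 12.0 on DDC diet. The highest DDC segment was just below the lowest control, and the log2 fold change of -0.84 (SE 0.24, adjusted p = 0.0169) lost its call without the segment of ROI 026 (-0.77, 0.0551), 029 (-0.72, 0.0902) or 032 (-0.77, 0.0552) and with TMM factors (-0.85, 0.0814). In the parenchyma Abcc2 was 10.5 (WT), 20.4 and 23.2 (TrailΔmye) on control and 31.5 and 33.0 (WT) and 7.00 and 21.0 (TrailΔmye) on DDC diet, with a log2 fold change of -0.01.

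Abcb4, the phosphatidylcholine floppase of the canaliculus, was not called in any diet comparison, with log2 fold changes of 0.44 and 0.35 in PanCK+, -1.58 and -0.33 in periportal IBA1+ (WT and TrailΔmye) and -0.10 in parenchymal IBA1+ segments. In TrailΔmye PanCK+ segments it ranged from 2.63 to 21.0 on control and from 5.60 to 15.1 on DDC diet, so that the control range held all DDC segments. Abcg5 and Abcg8, the sterol half-transporters that overlap on chromosome 17, Abcg2, Abcb1a and the cation extruder Slc47a1 were not called either. Of 8 canalicular genes, 0, 0, 1, 2 and 0 were called lower in the 5 comparisons and 0 higher. Their median log2 fold changes were -0.11, 0.35, -0.77, -0.36 and -0.40. These turned positive in every comparison once scaled to the hepatocyte markers, and in WT PanCK+ segments with TMM factors (0.08). The hepatocyte scaling moved the median of all genes up by 0.658 to 2.18, so its positive signs do not show a rise against other genes.

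**Figure D2:**
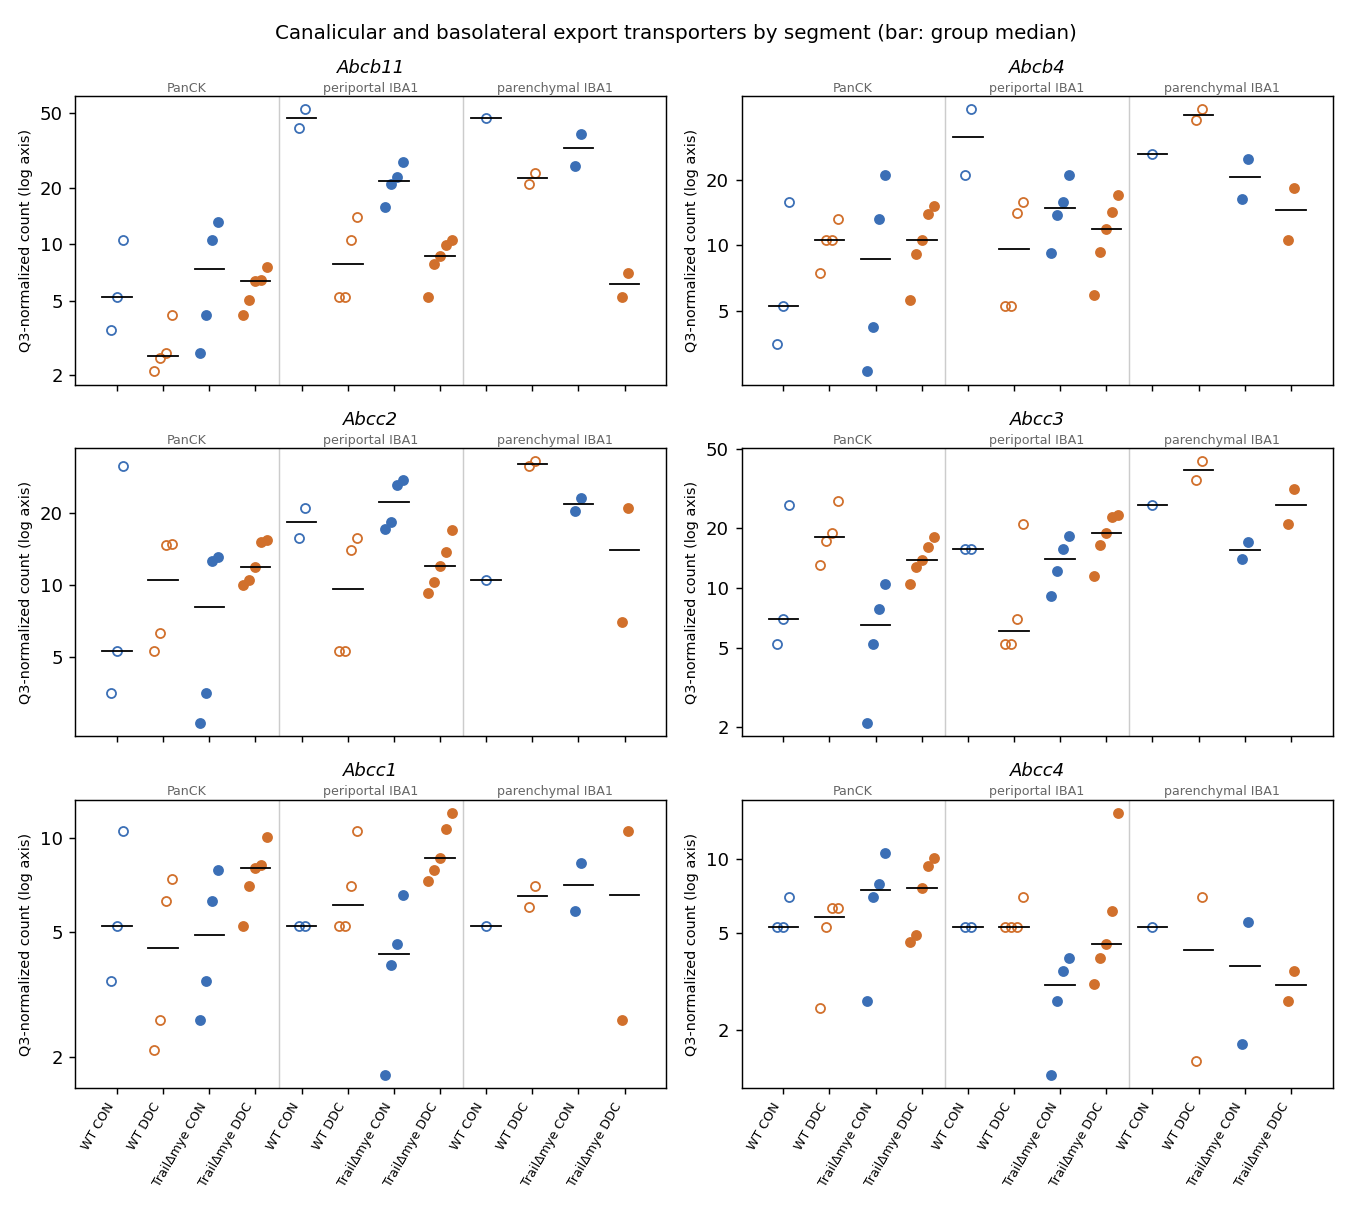
Q3-normalized counts (log axis) of 3 canalicular (Abcb11, Abcb4, Abcc2) and 3 basolateral (Abcc3, Abcc1, Abcc4) export transporters in each segment, with the same groups and colours as the plot of uptake carriers and bars at group medians. In TrailΔmye periportal IBA1+ segments, Abcb11 is 15.8 to 27.6 on control and 5.25 to 10.5 on DDC diet, and Abcc1 is 1.75 to 6.57 on control and 7.27 to 12.0 on DDC diet.

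In the reported fit, basolateral export held the sole transporter called higher with the diet. Abcc1, which exports glutathione and glucuronide conjugates and is expressed in many cell types, was 1.75, 6.57, 4.60 and 3.94 Q3-normalized counts on control and 8.65, 7.27, 7.88, 10.7 and 12.0 on DDC diet in TrailΔmye periportal IBA1+ segments. All DDC segments were above all controls, with a log2 fold change of 1.10 (SE 0.31, adjusted p = 0.0177). The call was lost without the segment of ROI 026 (0.94, 0.0786), 028 (1.14, 0.085), 029 (1.06, 0.0545) or 035 (0.99, 0.0742). Fibroblast markers rose in the same comparison, 7 of 10 being called higher, with sums of 96.3 to 267 on control and 714 to 1686 on DDC diet, and whether they had a part in the Abcc1 value was not tested.

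Abcc3, a basolateral exporter of bile salts and glucuronides, was 10.5, 5.25, 7.88 and 2.10 on control and 18.2, 16.1, 12.8, 10.5 and 13.9 on DDC diet in TrailΔmye PanCK+ segments. The DDC segments stood at or above the highest control, but the log2 fold change of 1.20 (SE 0.44) did not pass the test (adjusted p = 0.197). WT PanCK+ segments held 7.00, 5.25 and 26.3 on control and 17.3, 27.3, 13.1 and 18.9 on DDC diet, which overlapped (log2 fold change 0.67). In the parenchyma Abcc3 was 26.3, 14.0 and 17.1 on control and 35.0, 43.5, 21.0 and 31.5 on DDC diet (log2 fold change 0.74, adjusted p = 0.819). Scaled to the hepatocyte markers, parenchymal Abcc3 was called higher (1.56, edgeR adjusted p = 0.0472).

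Abcc4, another basolateral bile salt exporter, had a log2 fold change of 1.05 in TrailΔmye periportal IBA1+ segments (SE 0.44, adjusted p = 0.132), where the DDC segment of ROI 033 held 15.4 and the other DDC segments 3.09 to 6.14. Abcc6 had a log2 fold change of -0.73 (adjusted p = 0.0924) in the same comparison and -1.82 (adjusted p = 0.603) in WT mice. Slc51b, a subunit of the basolateral bile salt carrier, stood at 1 count in 52.6% of segments, the largest share among the transporters, and its log2 fold changes of -0.40 to 0.85 rest on such values. Of the 6 basolateral export genes, 1 was called higher in TrailΔmye periportal IBA1+ segments and 0 in the other diet comparisons. Their medians were -0.32, 0.34, -0.01, 0.21 and 0.30. With TMM factors the median in WT periportal IBA1+ segments was 0.13, and scaled to the hepatocyte markers all 5 medians were positive. That scaling moved the median of all genes up as well, by 0.658 to 2.18.

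**Figure D3:**
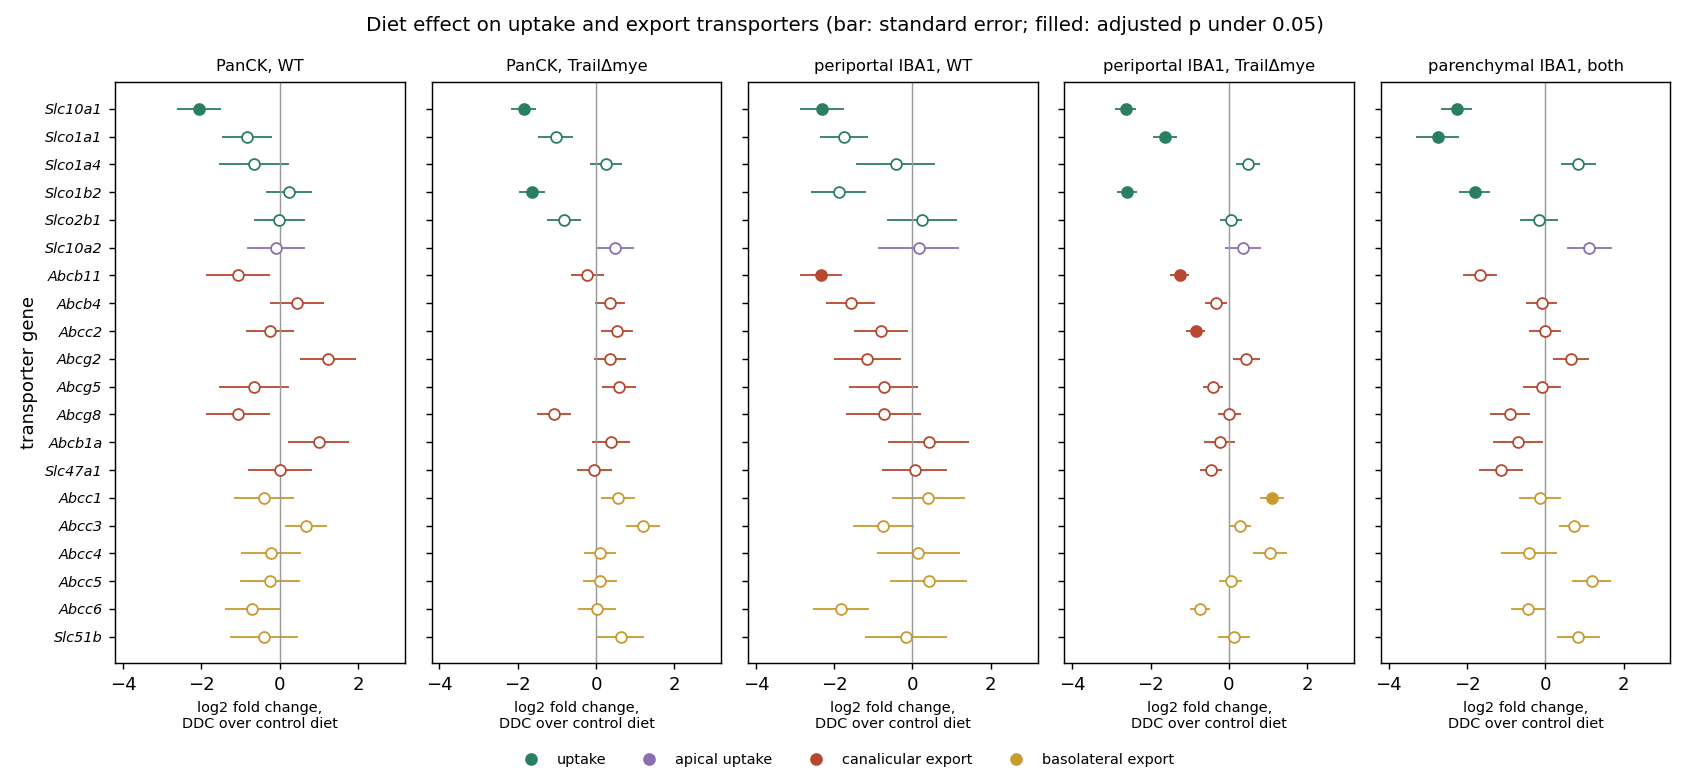
Log2 fold changes of DDC over control diet (horizontal axis, bars are standard errors) for 20 uptake and export transporters in 5 comparisons; filled points have an edgeR adjusted p under 0.05. Slc10a1 is filled in all 5 panels and Abcc1 is the one filled point to the right of 0, at 1.10. Scaled to the hepatocyte markers, Abcb11, Abcc2 and Slco1a1 turn positive in TrailΔmye periportal IBA1+ segments, and 5 of 5 medians of either export list are positive. That scaling moved the median of all genes up by 0.658 to 2.18.

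The balance of both directions was described as a ratio in each segment. The summed Q3-normalized counts of the 6 uptake genes were divided by those of the 14 export genes. The factor that scales a segment cancels in this ratio, but depth can still affect it, since no value is below 1 count. In the WT DDC periportal IBA1+ segment of ROI 011, 46 transporters stood at 1 count. Its ratio of 0.333 became 0 with values of 1 count set to 0. In TrailΔmye parenchymal segments, 19 to 23 transporters stood at 1 count on DDC diet and 0 on control. In the parenchyma the ratio was 1.40 in the WT control and had a median of 1.26 in TrailΔmye controls. The median was 0.464 in DDC segments of either genotype. In periportal IBA1+ segments the median was 1.11 on control and 0.415 on DDC diet in TrailΔmye mice, and 0.732 and 0.513 in WT mice, where the control range of 0.606 to 0.857 overlapped the DDC range of 0.333 to 0.630. PanCK+ segments had medians of 1.06 and 0.482 in WT and of 0.894 and 0.317 in TrailΔmye mice, though the WT control range of 0.455 to 1.19 overlapped the WT DDC range of 0.386 to 0.513. The DDC value was thus 0.332 to 0.701 of the control value in the 6 pairs of groups. Without the gene of highest level in each list, the quotient of DDC over control moved from 0.457 to 0.751 in WT PanCK+ and from 0.374 to 0.645 in TrailΔmye periportal IBA1+ segments. With values of 1 count set to 0, that of WT PanCK+ segments was 0.232. The quotient then went from 0.701 to 0.852 in WT periportal IBA1+ and from 0.368 to 0.376 in TrailΔmye parenchymal segments. It went from 0.354 to 0.313 in TrailΔmye PanCK+ and from 0.332 to 0.309 in WT parenchymal segments. In TrailΔmye periportal IBA1+ segments it stayed at 0.374. The sums add probes of different genes, so the ratio is a description of these segments and not of transport.

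**Figure D4:**
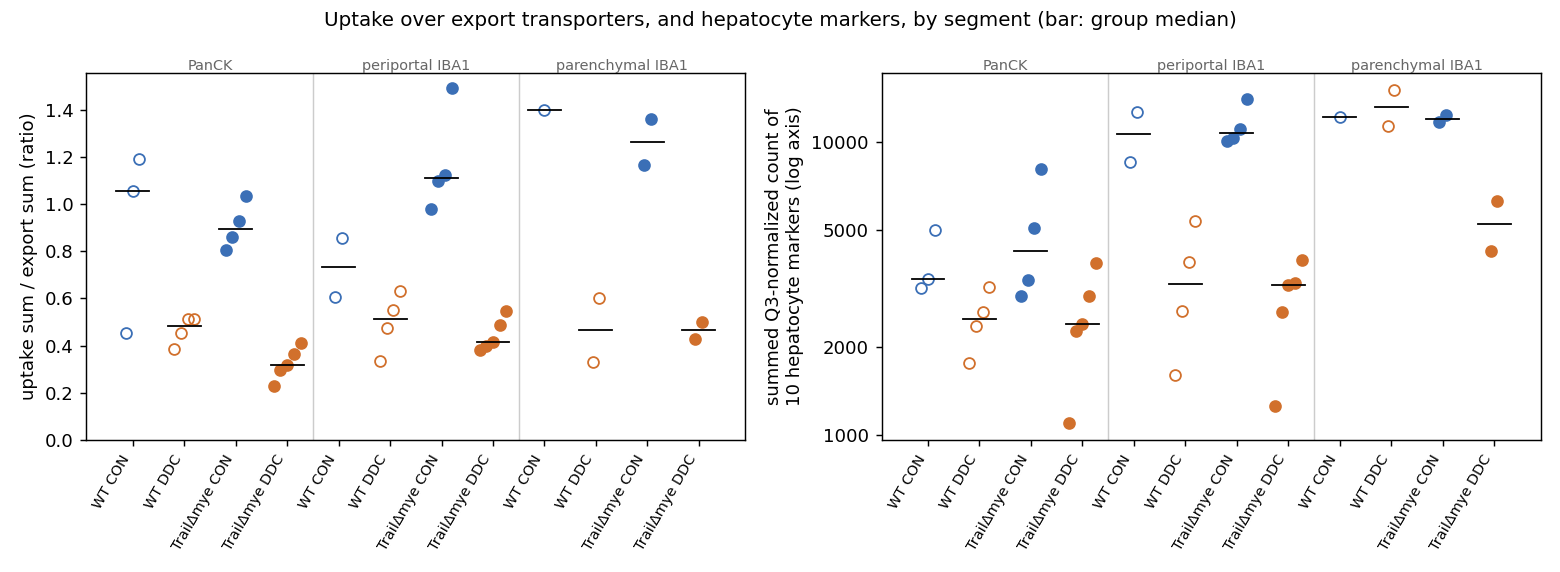
Left, summed uptake over summed export transporter counts in each segment (linear axis from 0); right, summed Q3-normalized counts of 10 hepatocyte markers (log axis); groups as in the plot of uptake carriers, bars at group medians. The parenchymal ratio has medians of 1.40 (WT) and 1.26 (TrailΔmye) on control and 0.464 on DDC diet. The WT parenchymal DDC segments hold 11327 to 15029 marker counts against 12190 in the single control. The TrailΔmye parenchymal DDC segments hold 4244 to 6261 against 11661 to 12327 on control.

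Among the transporters outside the uptake and export lists, Abcd3 had the lowest adjusted p-value with DDC diet. Abcd3, which carries long-chain acyl-CoA and the bile acid intermediates of side-chain oxidation into peroxisomes, was 43.8, 28.9, 34.1 and 43.3 on control and 8.65, 18.6, 13.8, 11.5 and 15.0 on DDC diet in TrailΔmye periportal IBA1+ segments. All DDC segments were lower (log2 fold change -1.49, SE 0.25, adjusted p = 1.12e-05). The parenchymal log2 fold change of -1.05 did not pass the test (adjusted p = 0.426). Abcd4, of the same family, had a log2 fold change of -0.09 in TrailΔmye periportal IBA1+ segments.

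Slc22a27, a liver organic anion carrier with close paralogs on chromosome 19, was 8.75, 7.88, 12.5 and 10.5 on control and 4.33, 4.04, 3.94, 5.95 and 3.75 on DDC diet in TrailΔmye periportal IBA1+ segments. The groups did not overlap (log2 fold change -1.11, SE 0.29, adjusted p = 0.00978), and the call was lost without ROI 028 (-0.94, 0.194). Abca6, a lipid transporter of the A subfamily, was 12.3, 23.6, 11.8 and 17.1 on control and 8.03, 11.3, 8.54, 9.91 and 7.50 on DDC diet there. The groups were separate by a small margin (log2 fold change -0.76, SE 0.25, adjusted p = 0.0397), and 5 of the 9 segments could not be left out without losing the call, with adjusted p-values of 0.0622 to 0.304, nor did it hold with TMM factors (0.0747). Abca8a, of the same gene cluster, fell in TrailΔmye PanCK+ segments, where it was 21.0, 13.1, 10.5 and 16.8 on control and 4.04, 1.40, 1.37, 7.22 and 5.04 on DDC diet. These groups did not overlap (log2 fold change -1.74, SE 0.38, adjusted p = 0.00407), and the call was lost without the segment of ROI 026 (-1.62, 0.0594) or 029 (-1.71, 0.0793).

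The mitochondrial and heme transporters Abcb6, Abcb8 and Abcb10 were not called in any diet comparison, although the DDC diet is known for its effect on heme synthesis. The lowest adjusted p-value in TrailΔmye periportal IBA1+ segments was that of Abcb8 (log2 fold change -0.99, adjusted p = 0.0591). It was called lower with TMM factors (-1.05, adjusted p = 0.028). The sterol efflux genes Abca1, Abcg1 and Abca7 were not called either. Abcg1 stood at 1 count in all 4 TrailΔmye PanCK+ controls and at 6.06, 7.70, 11.0, 7.35 and 10.9 in the DDC segments, at least 1.06-fold higher over a floor of 3 counts, with an adjusted p of 0.169. The lysosomal lipid transporters Abca2, Abca3 and Abca5 had log2 fold changes of 0.04, 0.03 and 0.19 in TrailΔmye periportal IBA1+ segments.

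The remaining transporters were not called in any diet comparison. Slco2a1, the prostaglandin carrier, had log2 fold changes of 0.67 and -0.16 in WT and TrailΔmye PanCK+, -0.75 and 0.08 in periportal IBA1+ and 0.73 in parenchymal IBA1+ segments. The organic cation and anion carriers Slc22a21 and Slc22a28 had log2 fold changes of -1.86 and -1.54 in WT PanCK+ and of -1.98 and -1.36 in parenchymal segments, with adjusted p-values of 0.426 to 0.595. Abca14, Abca8b, Abca9, Abcc9, Abcc10, Abcg3, Slc10a4, Slc10a5, Slc22a15, Slc22a18 and Slc22a23 ran from -1.38 (Abca9, WT PanCK+) to 1.38 (Slc22a23, TrailΔmye PanCK+), and each stood at 1 count in 10 to 17 of the 38 segments. Abcd2 had its highest log2 fold change, 2.46, in WT periportal IBA1+ segments with the high value of ROI 009 that is described with the genotypes.

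Genes of the wider bile acid pathway were called lower in TrailΔmye periportal IBA1+ segments, where 5.18% of all genes and 8 of 10 hepatocyte markers were called lower too, against 0.417% to 1.04% of all genes in the other 4 diet comparisons. Their part in these counts was not tested. Of 12 genes of bile acid synthesis and conjugation, 4 fell there: the conjugating ligase Slc27a5 (log2 fold change -2.16, adjusted p = 1.2e-08), the 12α-hydroxylase Cyp8b1 (-1.43), the reductase Akr1d1 (-1.12) and the racemase Amacr (-1.25). In WT periportal IBA1+ segments 2 fell, Slc27a5 (-2.38, adjusted p = 0.00357) and the sterol carrier Scp2 (-3.51, adjusted p = 9.16e-07). Scp2 also fell in WT PanCK+ segments (-2.31) and Slc27a5 in TrailΔmye PanCK+ segments (adjusted p = 0.0489), and 0 of 12 was called in the parenchyma. On control diet Scp2 was lower in TrailΔmye than in WT PanCK+ (-2.12, edgeR adjusted p = 0.000481) and periportal IBA1+ segments (-2.92, 4.86e-06). Its interaction of genotype and diet was called in both classes (2.38, 0.0149, and 2.89, 0.0156). Cyp7b1 was also lower in TrailΔmye than in WT periportal IBA1+ segments on control diet (-2.98, 0.00307). Of 13 regulators of these transporters, 5 fell in TrailΔmye periportal IBA1+ segments, namely Nr1i3 (-1.31), Nr1h3 (-1.30), Rxra (-1.03), Hnf4a (-0.98) and Ppara (-0.94), and 0 in the other diet comparisons. Of 7 partners of the canalicular and ductular membrane, the scaffold Pdzk1 fell there (-1.50, adjusted p = 3.68e-05).

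Segments of the same ROI were then compared to ask which transporters stood apart between duct and periportal macrophage areas. Slco3a1, an organic anion carrier with a broad tissue distribution, was the sole transporter higher in PanCK+ segments. Over the ROIs with both segments it was 22.2 ± 13.5 Q3-normalized counts (SD, n = 15) in PanCK+ against 6.22 ± 3.54 (SD, n = 15) in periportal IBA1+ segments. It was higher in 13 of 15 ROIs and undecided in the other two (log2 fold change 1.81, SE 0.18, adjusted p = 6.87e-13, with ROI as a block). In WT PanCK+ segments it was 7.00, 5.25 and 10.5 on control and 44.5, 12.6, 28.9 and 46.2 on DDC diet. In TrailΔmye PanCK+ segments it was 3.50, 15.8, 7.88 and 18.9 on control and 30.7, 24.5, 33.3, 19.2 and 31.5 on DDC diet. The diets did not overlap in either genotype, but the log2 fold changes of 2.09 (SE 0.63, adjusted p = 0.0954) and 1.16 (SE 0.39, adjusted p = 0.111) did not pass the test. With TMM factors the WT change was called higher (2.28, adjusted p = 0.0457). Scaled to the hepatocyte markers, Slco3a1 was called higher in WT (2.69, edgeR adjusted p = 0.00253) and TrailΔmye PanCK+ segments (2.13, 4.83e-05). Of all genes, 285 and 3977 were called higher on that scale. All 10 cholangiocyte markers were higher in PanCK+ segments, with sums of 620 to 2500 against 51.2 to 551. Slc10a2, the apical bile salt carrier of cholangiocytes, was higher in PanCK+ segments in 10 of 15 ROIs and did not pass the test (log2 fold change 0.54, adjusted p = 0.072).

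Lower in PanCK+ segments were 14 transporters, 26.4% of them, against 10.2% of all genes, while the 1 called higher was 1.89% against 7.67% of all genes. The sterol exporters Abcg1 (log2 fold change -1.15, adjusted p = 1.85e-08, lower in 13 of 15 ROIs) and Abca1 (-1.10, 5.02e-08, 14 of 15) and the carrier Slco2b1 (-1.09, 2.88e-06, 12 of 15) had the largest falls of these 14. All 10 macrophage markers were lower in PanCK+ segments, with sums of 49.0 to 168 against 389 to 1150. The hepatocyte transporters Slc10a1 (-0.90, adjusted p = 7.8e-05) and Abcb11 (-0.87, adjusted p = 0.000101) were lower in 13 of 15 ROIs each, and all 10 hepatocyte markers were lower (list median -0.70). Abca9 (-0.97, adjusted p = 5.11e-05) and Abca8a (-0.96, adjusted p = 8.21e-05), of the gene cluster on chromosome 11, were lower in 8 and 9 ROIs, as were 9 of 10 fibroblast markers. The part of these cell types in the transporter values was not tested. Abcd2 lost its call without ROI 009 (-0.42, adjusted p = 0.227). The median log2 fold change of the transporters was -0.23 against -0.03 over all genes.

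**Figure D5:**
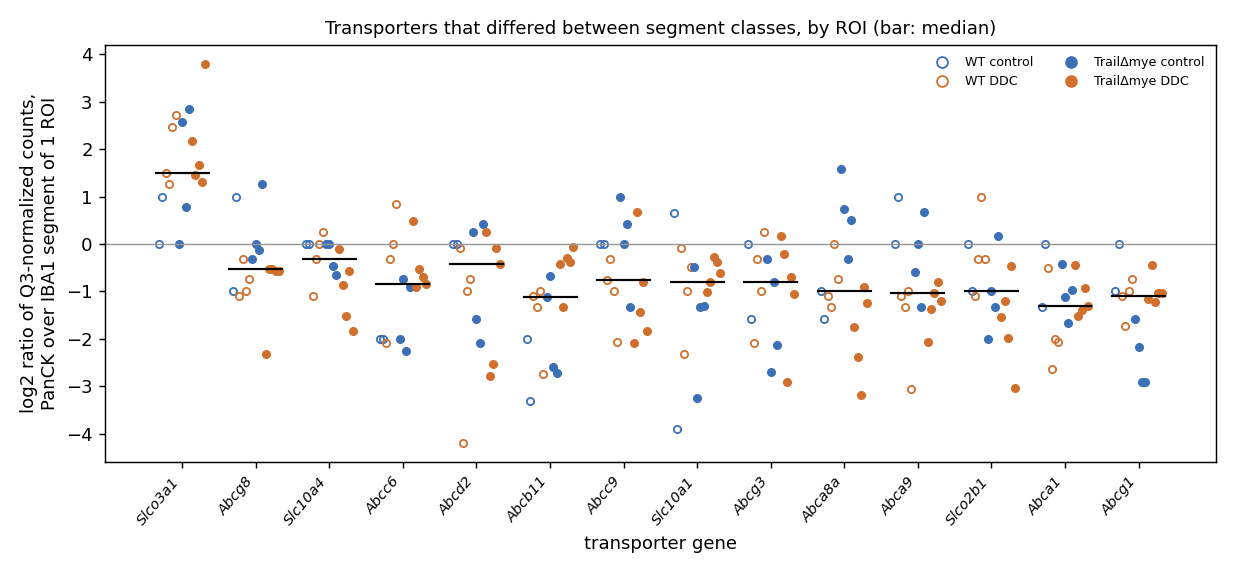
Log2 ratio of PanCK+ over periportal IBA1+ Q3-normalized counts (vertical axis) in each of 15 ROIs for 14 transporters called between these classes; open points are WT, filled points TrailΔmye, blue control and orange DDC diet, and bars are medians. Slco3a1 lies above 0 in 13 ROIs, and Abca1 and Abcg1 lie below 0 in 14 and 13.

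Within the IBA1+ areas, periportal and parenchymal segments differed in 2 transporters, 3.77% of them against 1.35% of all genes called lower in the periportal class. Slco1b2 was 18.1 ± 16.6 (SD, n = 15) in periportal and 43.3 ± 28.9 (SD, n = 7) in parenchymal segments (log2 fold change -1.04, SE 0.24, adjusted p = 0.00408, with genotype and diet as a term). Abca6 was lower as well (-0.85, SE 0.22, adjusted p = 0.0151), and not without the TrailΔmye CON segment of ROI 028 (-0.77, 0.0584). Of the hepatocyte markers 6 of 10 were lower in periportal segments (list median -0.88). The bile acid receptor Nr1h4 (-0.95) and the synthesis enzymes Cyp7a1 (-0.95) and Scp2 (-1.10) were among the pathway genes called lower, with Rxra (-0.82).

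Between genotypes, a single transporter was called by edgeR, and it rested on 1 segment. Between TrailΔmye and WT segments, 0 of 53 was called in PanCK+ segments on control (0.218% of all genes called in either direction) or DDC diet (0.152%) or in periportal IBA1+ segments on control diet (0.199%). The same held for the interaction of genotype and diet in PanCK+ (0.114%) and periportal IBA1+ segments (0.0569%). Before adjustment, the edgeR p was under 0.05 for 1, 7, 4, 5 and 2 of the 53 transporters in turn. Over all 10547 genes it was so for 273, 974, 279, 406 and 203. DESeq2 and limma called 0 transporters in each. The lowest adjusted p on DDC diet in PanCK+ segments was 0.316, for Slco1a4 (log2 fold change 1.44, SE 0.49) and Abca1 (1.31, SE 0.43), both higher in TrailΔmye mice. On DDC diet, Abcd2, a peroxisomal fatty acyl-CoA transporter, was called lower in TrailΔmye periportal IBA1+ segments (1.89% of the transporters against 0.019% of all genes). It was 5.25, 115.5, 5.25 and 3.50 in WT and 3.71, 4.85, 5.25, 5.15 and 4.50 in TrailΔmye DDC segments. The high value is 22 counts in the segment of ROI 009, and without it the log2 fold change of -2.59 (SE 0.50, adjusted p = 0.021) became 0.078 (adjusted p = 1). The falls of Slc10a1 and the other uptake genes with diet were therefore not shown to differ between genotypes.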

How the data were processed

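FFPE liver sections were profiled by the authors on the NanoString GeoMx platform, with segments taken on PanCK and IBA1 staining, 18 cycles of amplification and a filter on the limit of quantification. The submitters' processing notes name bcl2fastq and mm10; no source used here names the aligner. The deposited expected counts are whole per gene and segment except in 3 genes, which were rounded, and never fall below 1. The deposited signal values are the authors' Q3-normalized counts, equal to the expected counts times 1 factor per segment.

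Counts of all 10547 genes were tested by edgeR 4.0.16 (quasi-likelihood, R 4.3.3) with upper-quartile factors, no filter and Benjamini-Hochberg adjustment over all genes at 0.05. Diet was tested within genotype, genotype within diet, and their interaction, in each class fit; PanCK+ against periportal IBA1+ segments had ROI as a block, the parenchymal diet test a genotype term, and periportal against parenchymal IBA1+ segments a genotype by diet term. Standard errors are the log2 fold change over the root of F. PanCK+ and IBA1+ segments of 1 ROI are the same tissue; deviations of paired segments from group means over 3089 genes had a median r of 0.03 (lowest -0.02, highest 0.53), above 0.1 in 5 of 15 ROIs. Alternatives were TMM factors, DESeq2 1.42.0, limma 3.58.1 on log2 (Q3-normalized count + 1 or 0.5), filterByExpr, thinning, counts of 1 set to 0, fits of only the groups compared, leaving out each segment and, added after seeing the data, scaling to the hepatocyte markers.

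On simulated data, 4-fold changes were called in 29.9% and 64.2% of changed genes in WT and TrailΔmye PanCK+ diet comparisons. The share was 11.9% and 88.1% in periportal IBA1+ and 37.3% in parenchymal diet comparisons. Unchanged genes called numbered 0, 6, 0, 24 and 0 in these diet comparisons in turn. They numbered 19 between PanCK+ and periportal IBA1+ segments and 7 between periportal and parenchymal IBA1+ segments. In the comparisons with 24 and 19, the share of unchanged genes among all calls was above the adjusted p threshold. Intervals cover no animal-level spread. Promoter windows came from RefSeq (GRCm38.p6), with all 53 genes matched by symbol and 38 having a window. Genes named with values are all members of the role lists, all transporters called in a diet, genotype or interaction comparison, and the 5 highest and 5 lowest called between classes; Abca14, Abca8b, Abca9, Abcc9, Abcc10, Abcg3, Slc10a and Slc22a genes outside these were added after their values were seen, to account for every transporter. The transporters and the lists were chosen with earlier results of these data known. Slc22a7, Slc51a, Abcb1b and Abcb9 were not analysed here. Some single genes of the transporter lists are not reported here, though counts and medians over the lists include them.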

Additional observations from a re-analysis of the deposited data

Results flagged for a closer look

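In groups of 4 to 10 segments, 22 of 192 combinations of transporter and group, over 32 transporters, held a highest or lowest segment standing far from the rest by Dixon's 95% criterion. For continuous, normally distributed values, chance gives about 1 in 20 such groups. Values at or near 1 count are not of that kind, so no excess is read from the 22. All values are Q3-normalized counts, and no explanation was tested.

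Of these, 13 were in the WT DDC periportal IBA1+ group, where most values are 1 to 5 counts. The segment of ROI 013, in which 1 count is worth 3.50 against 5.25 in the other 3, stood apart for Abca9 (17.5), Abcc4 and Slco1a4 (7.00 each) and for Abcg5, Abcg8, Slc10a4 and Slc51b, which stood at 1 count in all 4 segments, hence at 3.50 there. The segment of ROI 009 was highest for Abcd2 (115.5, or 22 counts, against 3.50 to 5.25) and Abcb1a (15.8), that of ROI 007 for Abcc3 (21.0), Abcc5 (15.8) and Slco3a1 (15.8), and that of ROI 011 for Slc47a1 (15.8).

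In TrailΔmye DDC periportal IBA1+ segments, ROI 033 stood apart for Abca8a (7.27, against 12.0 to 13.6) and Abcc4 (15.4, against 3.09 to 6.14), and ROI 035 for Abca9 (10.1) and Slc22a27 (5.95). In TrailΔmye DDC PanCK+ segments these were ROI 033 for Abcb1a (14.0) and ROI 035 for Slc22a27 (5.12). Single segments stood apart for Abcg3 (17.1, TrailΔmye CON periportal IBA1+, ROI 027), Abcc9 (12.4, WT DDC PanCK+, ROI 007) and Slc51b (6.30, WT DDC PanCK+, ROI 009).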

How the results depend on the processing

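Of 35 calls of a transporter in a comparison, 29 kept their direction and their call with TMM factors, 25 with DESeq2 (6 lost, 4 with no adjusted p) or limma, 26 with counts of 1 set to 0, 20 of the 21 that passed filterByExpr and 9 with every segment thinned to the lowest total, as did 472 of 519 fits without 1 segment. Under these the single reversal was Abcd2 between genotypes on DDC diet without ROI 009 (0.078; range over leaving out each segment -3.10 to 0.078). Scaled to the hepatocyte markers, an alternative chosen after seeing the data that moved the median of all genes by 0.658 to 2.18, 6 calls of TrailΔmye periportal IBA1+ segments reversed: Abca6 to 1.37, Abcb11 to 0.92, Abcc2 to 1.30, Abcd3 to 0.67, Slc22a27 to 1.13 and Slco1a1 to 0.54. It called 47 transporters higher there (10 in all in the reported fit), 15 in TrailΔmye PanCK+ (3) and 1 in WT periportal IBA1+ segments (2). Of all 10547 genes, the same scaling called about 10280, 3977 and 459 higher in these comparisons in turn. The rise in TrailΔmye periportal IBA1+ segments was thus shared by most genes and not particular to the transporters. In the parenchyma the scaling called Abcc3 and Abcc5 higher (315 of all genes) and Slc10a1 and Slco1a1 lower (22 of all genes). In WT PanCK+ segments it called Slco3a1 higher (285 of all genes).

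The count of called transporters depended on the processing. For diet in WT PanCK+ segments (1) it was 2 with DESeq2, filterByExpr, counts of 1 set to 0 or only the groups compared, 3 with limma at either pseudocount, 0 thinned and 0 to 1 without 1 segment. In TrailΔmye PanCK+ segments (3) it was 5 with limma at either pseudocount, 1 thinned and 2 to 4 without 1 segment. In WT periportal IBA1+ segments (2) it was 0 with TMM factors, 7 and 6 with limma (pseudocount 1 and 0.5) and 0 to 2 without 1 segment. In TrailΔmye periportal IBA1+ segments (10) it was 6 with limma at either pseudocount or counts of 1 set to 0, 2 thinned and 8 to 12 without 1 segment. In parenchymal segments (4) it was 1 thinned and 1 to 4 without 1 segment. Between genotypes on DDC diet (periportal IBA1+, 1) it was 0 with DESeq2, limma, filterByExpr or only the groups compared and 0 to 1 without 1 segment. Between PanCK+ and periportal IBA1+ segments (15) it was 9 with DESeq2, 5 with filterByExpr, 2 thinned and 13 to 16 without 1 ROI. Without the ROI block it was 13, and 1670 of all genes were called against 1881 with the pairing. Between periportal and parenchymal IBA1+ segments (2) it was 6 with DESeq2, 1 with limma at pseudocount 0.5 or counts of 1 set to 0, 0 thinned and 1 to 3 without 1 segment. The causes were not tested; thinning and filterByExpr leave fewer counts or genes.

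For the uptake over export ratio, DDC over control was 0.457 in WT PanCK+ segments, 0.232 with counts of 1 set to 0 and 0.751 without the gene of highest level in each list. Without those genes it was 0.435 in TrailΔmye PanCK+ (0.354), 0.645 in TrailΔmye periportal IBA1+ (0.374) and 0.556 in TrailΔmye parenchymal segments (0.368). TMM factors moved the all-gene median by up to 0.439 on the log2 scale and the split of higher and lower calls from 52 and 44 to 78 and 31 (WT PanCK+ diet), 151 and 70 to 59 and 108 (TrailΔmye PanCK+ diet), 31 and 49 to 34 and 25 (parenchymal diet), 10 and 6 to 1 and 16 (PanCK+ genotype on DDC diet) and 11 and 1 to 5 and 4 (PanCK+ interaction). With DESeq2 it went from 443 and 546 to 209 and 449 in TrailΔmye periportal IBA1+ segments. Depth limits several groups: 23 to 46 of the 53 transporters stood at 1 count in WT DDC periportal IBA1+, 35 to 41 in WT CON PanCK+ and 30 to 35 in WT CON periportal IBA1+ segments, against 0 to 3 in the TrailΔmye periportal IBA1+ segments. In TrailΔmye PanCK+ segments 10 to 27 stood at 1 count on control and 0 to 1 on DDC diet. In TrailΔmye parenchymal segments 0 did on control and 19 to 23 on DDC diet. Depth thus differed between the diets in these TrailΔmye classes.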
